A study of Mus musculus with 8 samples.

Results

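Steady-state macrophages of the colon were described through the genes that read higher in them than in any other sample of the series. A gene was taken when the lower of the 2 colon macrophage arrays exceeded the highest of the 6 other arrays. That held for 2164 of 21442 measured genes, or 10.1%. The members were selected on the log2 values of all 8 arrays, so their excess in colon is given below as a description without a test. They fell into 86 genes from lists of macrophage biology, 198 from lists of gut epithelium, 52 from lists of other cells and programmes, and 1828 on no list.

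The 8 samples were 4 sorted myeloid populations with 2 arrays each, hybridised as biotin-labelled total RNA on Affymetrix expression arrays. Every mouse was C57BL/6 with the genotype Cx3cr1gfp/+, in which a green fluorescent reporter takes the place of 1 allele of the fractalkine receptor gene, the comparator populations included. Colon macrophages came from the lamina propria of steady-state colon. Orthotopic colorectal tumours gave F4/80-high tumour-associated macrophages (F4/80-high TAM) and Ly6C-high tumour-infiltrating macrophages (called Ly6C-high TAM, as in their titles). Spleen gave the Ly6C-high monocytes. All tissues were digested with Collagenase VIII, no treatment was given, and ages were not in the labels. The colon replicates were labelled male and female, the monocyte replicates male and mixed, and all tumour arrays male. The labels do not say whether the tumour replicates came from separate animals or pools, so p-values measure only the spread between these samples, which may be technical.

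Macrophages of the colon lamina propria lie directly beneath the epithelium and are renewed from Ly6C-high blood monocytes. As they mature they gain MHC class II, the mannose receptor CD206 and CD163, and they produce interleukin 10 (IL-10), which restrains their own response to gut microbes. They clear dying epithelial cells and release factors that support epithelial renewal and regulatory T cells.

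The arrays labelled colon macrophages carried macrophage markers. Csf1r, the receptor for the growth factor CSF1, read 12.91 and 12.92 on the log2 scale of the deposited values and 12.55 to 12.95 elsewhere. Adgre1, which encodes F4/80, read 12.92 and 12.83, above its 11.15 to 12.48 elsewhere. The same arrays also carried epithelial RNA. Epcam, an adhesion molecule of epithelial cells, read 11.30 and 11.92, against 6.35 and 8.77 in F4/80-high TAM, 6.11 and 9.67 in Ly6C-high TAM and 6.25 and 5.90 in monocytes. In sorted populations measured in bulk, fewer cells of a type and less RNA per cell cannot be told apart. The female colon array also differed from its male partner in Xist, the RNA of the inactive X chromosome, at 12.11 against 4.96. Xist is not among the 2164 genes. Median log2 values per array lay between 6.84 and 7.07, the lowest in the replicate 2 arrays of both tumour populations.

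Promoters of 4 of the genes are shown, 3 of macrophage type and 1 epithelial, because the results turn on these 2 classes, which other cells are known to express, and the letters of lineage motifs can be read in them. Sequences are the 250 bases before the annotated start in RefSeq, build GRCm38.p6, printed 5′ to 3′ along the gene's strand, with capitals marking motif letters found on either strand. Apol7c lies at chr15:77533316-77533565 on the minus strand, Mrc1 at chr2:14229164-14229413, Itgax at chr7:128129300-128129549 and Epcam at chr17:87635729-87635978, all 3 on the plus strand.
Apol7c: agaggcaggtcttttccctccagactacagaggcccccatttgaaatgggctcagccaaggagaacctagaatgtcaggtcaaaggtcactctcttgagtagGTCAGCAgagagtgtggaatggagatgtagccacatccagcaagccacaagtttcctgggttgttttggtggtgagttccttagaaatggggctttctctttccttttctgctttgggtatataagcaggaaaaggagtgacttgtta
Mrc1: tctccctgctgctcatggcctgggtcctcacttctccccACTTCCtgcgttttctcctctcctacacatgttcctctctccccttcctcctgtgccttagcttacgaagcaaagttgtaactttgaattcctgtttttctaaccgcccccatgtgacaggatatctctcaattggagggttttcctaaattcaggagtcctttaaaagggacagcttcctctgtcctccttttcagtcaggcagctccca
Itgax: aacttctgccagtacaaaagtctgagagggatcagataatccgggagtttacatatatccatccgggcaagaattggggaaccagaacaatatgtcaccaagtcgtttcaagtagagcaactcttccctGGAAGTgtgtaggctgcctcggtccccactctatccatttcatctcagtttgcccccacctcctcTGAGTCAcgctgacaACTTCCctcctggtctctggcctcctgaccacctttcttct
Epcam: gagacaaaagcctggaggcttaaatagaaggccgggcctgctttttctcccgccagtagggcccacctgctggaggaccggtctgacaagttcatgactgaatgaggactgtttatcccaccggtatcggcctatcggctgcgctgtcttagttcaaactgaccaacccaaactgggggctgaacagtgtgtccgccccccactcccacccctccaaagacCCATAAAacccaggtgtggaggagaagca

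The capitals in Mrc1 and Itgax include GGAAGT, the core of sites for PU.1 and other ETS factors, or its reverse complement. Apol7c holds the MAF letters TGCTGAC, Itgax also holds the AP-1 site TGACTCA, and Epcam holds the CDX site TTTATGG, each on the strand opposite to the one printed. GGAAGT occurred in 20.9% of the promoters of 15939 measured genes, in 27.7% of those of macrophage-type members (18 of 65) and in 15.7% of those of epithelial members (22 of 140). TGACTCA occurred in 3.93% of all promoters, in 9.23% of the macrophage-type and in 10% of the epithelial ones. TGCTGAC was in 3.44% of all and 4.62% of macrophage-type promoters, and TTTATGG in 2.13% of all and 4.29% of epithelial promoters. The HNF4 site CAAAGTCCA was rare, at 0.414% of all promoters, 2 of the 140 epithelial and 0 of the 65 macrophage-type ones. The MAF letters end in the TGAC with which the AP-1 letters begin, so 1 stretch can hold both. These shares are descriptions of letters and no test of any factor.

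The leading gene on the macrophage lists was Apol7c, a member of the apolipoprotein L family. It counts as macrophage-type only by its place on the list of scavenger and lipid receptors. That list, like the others, was chosen with earlier results of these data known. Apol7c read 12.77 and 12.31 in colon macrophages, 5.16 and 7.64 in F4/80-high TAM, 5.06 and 5.78 in Ly6C-high TAM and 7.35 and 6.18 in monocytes. No array of another population came within 4.67 of the lower colon value, and the colon mean stood 81.4-fold above the mean of the 3 other population means (log2 difference 6.35 ± 0.65 SE of the fit). Differences below are of this kind, the colon mean minus the mean of the other 3 population means on the log2 scale, with the SE where one is given.

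Il10, the cytokine that restrains gut inflammation, followed. It read 10.58 and 11.10 in colon, 6.37 and 6.83 in F4/80-high TAM, 5.55 and 5.68 in Ly6C-high TAM and 5.67 and 5.37 in monocytes, a difference of 4.92 ± 0.19. Its receptor chains did not share this pattern: Il10ra read 11.77 and 11.69 in colon against 11.41 to 12.08 elsewhere, and Il10rb 11.87 and 11.86 against 11.13 to 11.98. Of 19 genes of IL-10 signalling and feedback, 10 were members. They included Tnfaip3, which encodes the NF-kB brake A20 and read 12.04 and 12.19 in colon against 9.83 to 10.54 elsewhere. Also members were Nfkbiz, Nfkbia and Nfkbid, of the IkB family, Socs3, a feedback inhibitor of cytokine receptors, and the phosphatases Dusp1 and Dusp2. Their differences ran from 0.43 for Nfkbia to 1.75 for Dusp2. Zfp36, which destabilises cytokine messages, read 12.96 in both colon arrays and at most 12.54 elsewhere. Stat3, the factor through which IL-10 signals, was not a member and read 11.51 and 11.42 in colon against 11.63 to 11.84 elsewhere. Nor were Il1rn and Socs1, and Socs1, another feedback inhibitor, was lower in colon than in the tumour arrays (8.28 and 7.77 against 9.27 to 9.85).

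**Figure D1:**
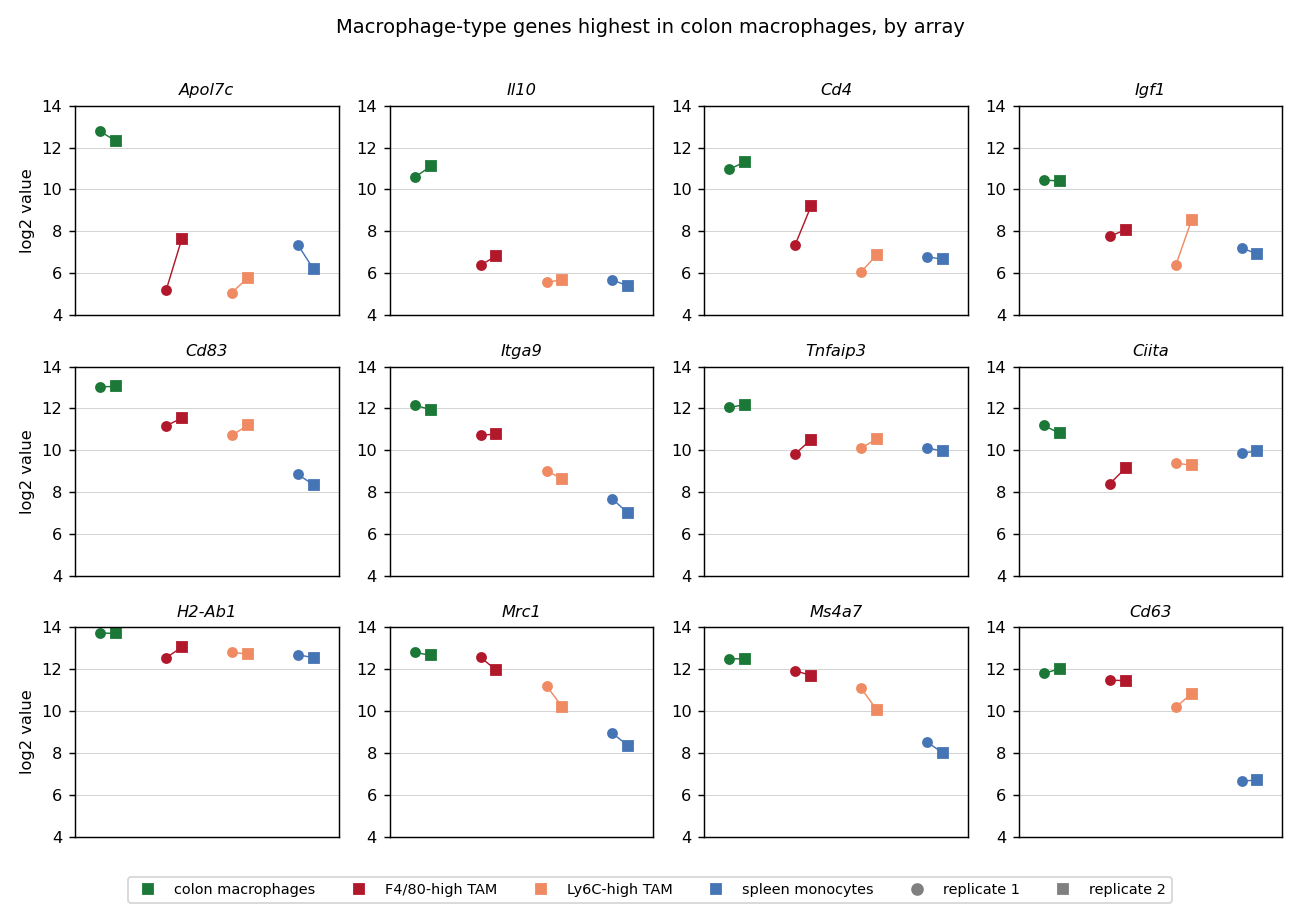
Log2 values of 12 macrophage-type genes on each of the 8 arrays, with colour for the population, a circle for replicate 1, a square for replicate 2 and a line joining them, on the same vertical axis in every panel. Apol7c, Il10 and Cd4 stand far above all other arrays in colon, whereas Mrc1, Ms4a7 and Cd63 are close in colon macrophages and F4/80-high TAM and lowest in monocytes.

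Surface receptors formed the largest macrophage group. Of 64 receptors and markers of resident gut macrophages, 22 were members. Cd4, which mouse colon macrophages of long residence are known to carry, read 10.96 and 11.32 in colon, 7.35 and 9.20 in F4/80-high TAM, 6.06 and 6.87 in Ly6C-high TAM and 6.79 and 6.65 in monocytes, a difference of 3.99 ± 0.47. Timd4, the phosphatidylserine receptor that marks the same cells, read 6.98 and 7.66 in colon and 5.53 to 6.25 elsewhere. Cd163, the haemoglobin scavenger receptor, read 8.38 and 9.12 in colon, with 1 other array near it, F4/80-high TAM replicate 1 at 7.96, and 5.72 to 6.62 in the other five. Lyve1, a hyaluronan receptor of macrophages and lymphatic vessels, had a like profile, at 9.12 and 9.76 in colon, 8.31 in F4/80-high TAM replicate 1 and 6.74 to 7.48 in the rest.

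A second set of receptors was high in colon and nearly as high in F4/80-high TAM. Mrc1, the mannose receptor, read 12.82 and 12.66 in colon, 12.57 and 11.95 in F4/80-high TAM, 11.21 and 10.19 in Ly6C-high TAM and 8.94 and 8.35 in monocytes. Ms4a14, a tetraspanning membrane protein, read 11.73 and 11.61, then 11.20 and 10.56, 9.71 and 8.30, and 6.33 and 5.40 in the same order. The levels of Ms4a7, Cd63 and Cd81, Gpr34 and Lilra5 were also second highest in F4/80-high TAM. Itgax, which encodes CD11c, read 11.99 and 11.94 in colon against 8.81 to 11.75 elsewhere. These genes were put together for that order, after their values were seen, so the order is no finding about them as a set.

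Many established resident markers were not members. Cx3cr1 read 11.88 and 11.95 in colon and missed by 1 array, F4/80-high TAM replicate 1 at 11.90. The efferocytosis receptor Mertk read 11.47 and 11.26 against 11.94 and 11.53 in F4/80-high TAM, and Fcrls read 11.67 and 11.87 with F4/80-high TAM replicate 1 at 11.82. C1qa, a chain of the complement initiator C1q, read 12.66 and 12.61, below F4/80-high TAM at 12.69 and 12.86. The Fc receptor Fcgr1 and the sialoadhesin Siglec1 were lower in colon than in every tumour array. Of 19 genes of complement and opsonins 2 were members, and of 24 lysosomal enzymes 1, the phosphatase gene Acp5. The bridging protein gene Gas6, a ligand of Mertk and Axl, read 11.27 and 11.74 in colon, 10.29 and 9.96 in F4/80-high TAM, 7.14 and 9.43 in Ly6C-high TAM and 6.73 and 6.22 in monocytes. Among 23 scavenger and lipid genes, the members besides Apol7c were Cd36, a receptor for oxidised lipids (10.56 and 10.82 in colon against 7.54 to 8.76), and the phospholipid transfer gene Pltp (12.55 and 12.46 against 9.90 to 11.49).

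Antigen presentation by MHC class II was higher in colon across nearly its whole list. Of 11 measured genes 9 were members, against 26.8% of all 321 genes in the macrophage lists. Ciita, the master regulator of class II transcription, read 11.19 and 10.81 in colon, 8.39 and 9.15 in F4/80-high TAM, 9.39 and 9.28 in Ly6C-high TAM and 9.86 and 9.96 in monocytes, a difference of 1.66 ± 0.21. The structural genes stood near the top of the scale on every array. H2-Ab1 read 13.74 and 13.71 in colon against 12.55 to 13.06 elsewhere, a difference of 0.99 ± 0.15, and H2-Eb1, H2-Aa and Cd74 differed by 1.34, 0.88 and 0.68. H2-Ob and H2-Oa, whose products temper peptide loading by H2-DM, read 9.75 and 9.73 and 8.27 and 8.12 in colon, against 7.02 to 8.56 and 7.17 to 7.78 elsewhere. The mean of the list was 11.64 and 11.54 in colon, 10.54 and 10.99 in F4/80-high TAM, 10.65 and 10.62 in Ly6C-high TAM and 10.89 and 10.66 in monocytes. B cells and dendritic cells also express class II genes. The mean of the plasma and B cell list was 7.97 and 7.85 in colon, 6.87 and 7.72 in F4/80-high TAM, 7.0 and 7.61 in Ly6C-high TAM and 7.87 and 7.39 in monocytes, and of 23 dendritic cell genes 3 (Cadm1, Siglech and Cd209a) were members. The part of these cells in the class II values was not tested.

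Secreted factors were represented by 11 of 45 cytokine and growth factor genes and 7 of 24 chemokines. Igf1, a growth factor, read 10.45 and 10.40 in colon, 7.75 and 8.07 in F4/80-high TAM, 6.36 and 8.52 in Ly6C-high TAM and 7.20 and 6.91 in monocytes. Hpgds, the synthase of prostaglandin D2, and Ptgs1, the constitutive cyclooxygenase, were high in colon and next in F4/80-high TAM. Hpgds read 11.86 and 11.51, then 11.37 and 10.51, 8.32 and 7.84, and 6.82 and 5.71. Tnf read 10.97 and 11.19 in colon against 9.0 to 10.72 elsewhere, whereas Il6 read 5.06 and 5.50, below Ly6C-high TAM at 7.44 and 8.00. Il1b missed the rule by 1 array, with 13.25 and 13.24 in colon and 13.27 in Ly6C-high TAM replicate 2.

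Ccl8, a chemokine ligand of monocytes and T cells, was the leading chemokine, with 11.89 and 12.02 in colon, 10.06 and 10.73 in F4/80-high TAM, 6.77 and 8.37 in Ly6C-high TAM and 6.38 and 4.82 in monocytes. The neutrophil attractants Cxcl1 and Cxcl2 and the inflammatory chemokines Ccl3 and Ccl4 were members by margins of 1.03, 0.39, 0.50 and 0.44. The monocyte attractant Ccl2 was not, at 11.32 and 10.78 in colon against 12.46 to 12.80 in tumour arrays, and neither were Ccl5 and Cxcl10. The integrin subunit gene Itga9 was a member, at 12.15 and 11.95 in colon, 10.71 and 10.78 in F4/80-high TAM, 9.01 and 8.64 in Ly6C-high TAM and 7.67 and 6.98 in monocytes. Cd83, a surface protein that stabilises class II molecules, read 13.03 and 13.05 in colon, 11.16 and 11.54 in F4/80-high TAM, 10.71 and 11.20 in Ly6C-high TAM and 8.84 and 8.35 in monocytes. The inhibitory receptor gene Lag3 (8.47 and 8.88 in colon, 6.52 to 7.36 elsewhere) and Cd86 were the other members among 21 costimulation and checkpoint genes.

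Of 35 lineage transcription factors 9 were members. The lipid-sensing receptor gene Pparg read 9.98 and 10.40 in colon and 8.24 to 9.38 elsewhere, and Cebpa read 10.88 and 10.87 against 9.38 to 10.64. Spi1, which encodes PU.1, was lower in colon than on every other array (11.99 and 12.12 against 12.35 to 12.76). Runx3, a factor of gut macrophages and lymphocytes, was not a member.

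Several genes on the macrophage lists are also expressed by gut epithelium, among them Gata6, Id3, Areg, Bmp2, Cd55 and Slc40a1. Their colon replicates differed more than those of Il10 or Cd83. Such a gap was not particular to them, at 0.74 for Cd163, 0.67 for Ccl4 and 0.64 for Lyve1. Areg, an EGF receptor ligand, read 8.89 and 10.53 in colon, and Gata6 read 9.56 and 10.49. The replicate 2 value exceeded replicate 1 by 1.32 in colon, 1.52 in F4/80-high TAM and 1.55 in Ly6C-high TAM for Slc40a1, the iron exporter. For Cd55, an inhibitor of complement, the gaps were 0.99, 0.88 and 1.15, and for Areg 1.65, 1.17 and 0.93. The mean of the epithelial adhesion and keratin list was higher in the same arrays (below), and its part in the values of these genes was not tested. Cd209f, a C-type lectin, had the widest gap of all 86, with 5.79 in the male and 8.57 in the female colon array.

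Genes on the gut epithelial lists filled the rule far more densely than genes on the macrophage lists. All lists were chosen with earlier results of these data known, and the part of that choice in these shares was not tested. Of 282 measured genes on 4 epithelial lists, 198 (70.2%) were members, and 122 of these by more than 1 log2 unit, against 494 of all genes (2.3%). Their median difference was 2.36, against 1.47 for the 86 macrophage-type members and -0.044 over all genes. Of 66 genes of epithelial adhesion and keratins 59 were members, of 106 colonocyte genes 73, of 67 goblet and secretory genes 47, and of 43 genes of crypt, tuft and enteroendocrine cells 19.

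Mptx1, a mucosal pentraxin, had the largest difference of all 2164 genes (6.71 ± 0.40, or 105-fold). It read 11.64 and 12.19 in colon and 4.65 to 5.90 in the 6 other arrays. Those 6 values lie below the median gene of their arrays. The deposited values carry no detection calls, so a fold against values this low holds only for the values as deposited. Among absorptive genes, Car1, a carbonic anhydrase, read 13.12 and 13.47 in colon, 6.38 and 8.80 in F4/80-high TAM, 6.51 and 9.82 in Ly6C-high TAM and 8.32 and 6.34 in monocytes. The cytochrome gene Cyp2c55 read 10.52 and 11.47 in colon against 4.52 to 5.56 elsewhere. Of the goblet cell genes, Clca1 read 12.76 and 13.13 against 5.82 to 8.06, and Zg16, a mucus lectin, read 11.56 and 12.77 against 5.07 to 9.24. Pigr, the receptor that carries IgA across the epithelium, read 12.28 and 12.81 against 5.78 to 9.57. Of the rarer cells, the peptide hormone genes Insl5 and Gcg of enteroendocrine cells and Lgr5 of crypt stem cells were members at lower levels, with colon values of 6.96 to 9.27. The tuft cell gene Dclk1 was not, at 6.10 and 6.37 against 5.60 to 6.16.

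The epithelial factors were members too. Hnf4a read 11.11 and 11.92 in colon and 7.32 to 9.88 elsewhere. Cdx2, the factor of intestinal identity, read 8.58 and 9.35 in colon and 6.03 to 6.36 on all other arrays, including the tumour replicate 2 arrays, where Epcam and Hnf4a were raised. Cdx2 and Fabp2, a fatty acid binding protein of enterocytes (9.22 and 10.29 in colon, 4.50 to 4.81 elsewhere), thus separated colon from tumour arrays more cleanly than Krt8 (13.10 and 13.60 against 12.94 in Ly6C-high TAM replicate 2). Hnf4a, Cdx2, Fabp2, Krt8, and the listed genes named above as not members, were chosen after their values were seen.

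**Figure D2:**
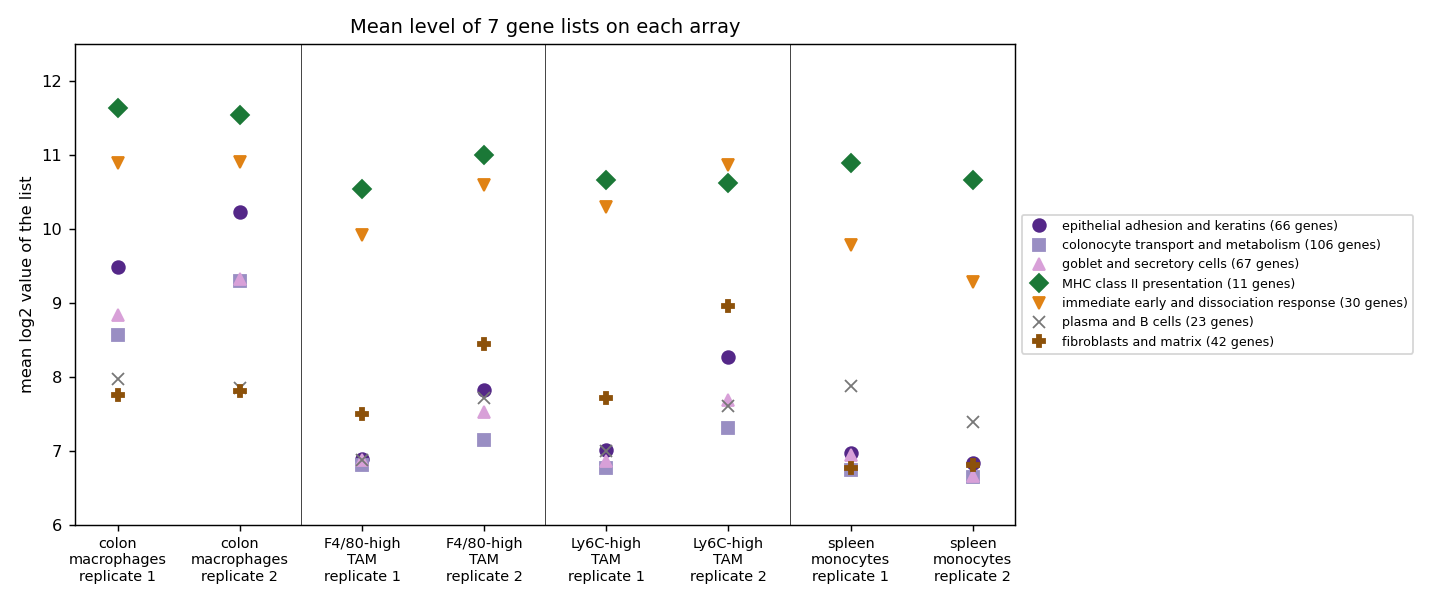
Mean log2 value of 7 gene lists (vertical axis, 1 symbol per list, all measured genes of the list) on each of the 8 arrays (horizontal axis). The epithelial lists are highest in the colon arrays, with replicate 2 above replicate 1, and are next highest in the replicate 2 arrays of both tumour populations; fibroblast genes are highest in Ly6C-high TAM replicate 2.

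The 2 classes differed in how far apart the colon replicates lay and in the share of large gaps in the tumour populations. Their median gaps in F4/80-high TAM differed little. The rule used the colon gap only through the lower colon array, and the tumour gaps only through the higher array. The median of replicate 2 minus replicate 1 in colon was 0.75 over the epithelial members and 0.07 over the macrophage-type members, against -0.015 over all genes. Colon replicate 2 was the higher one for 186 of the 198 epithelial members (93.9%) and for 49 of the 86 macrophage-type members (57%). Over all 2164 members it was the higher one for 1579 (73%). The share over all genes was not counted. The 2 colon arrays lay within 0.25 of each other for 55 of 86 macrophage-type members (64%) and 28 of 198 epithelial members (14.1%), against 62.4% of all genes. In both tumour populations replicate 2 exceeded replicate 1 by 1 log2 unit or more for 56 epithelial members (28.3%) and 2 macrophage-type members (2.33%), against 2.38% of all genes. The median gap in F4/80-high TAM was 0.33 over the epithelial and 0.27 over the macrophage-type members, with 74.7% and 67.4% higher in replicate 2, and in Ly6C-high TAM it was 0.54 and 0.05. Over all members 52.5% were higher in F4/80-high TAM replicate 2.

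The mean of the adhesion and keratin list was 9.49 and 10.23 in colon, 6.89 and 7.82 in F4/80-high TAM, 7.01 and 8.27 in Ly6C-high TAM and 6.97 and 6.83 in monocytes. It was thus highest in both colon arrays, raised in the replicate 2 arrays of both tumour populations, and lowest in F4/80-high TAM replicate 1 and the monocytes. The 1828 members on no list lay between the classes, with a median colon replicate gap of 0.23 and 71.6% higher in replicate 2. Sex and replicate cannot be told apart in the colon arrays, since replicate 1 was male and replicate 2 female.

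**Figure D3:**
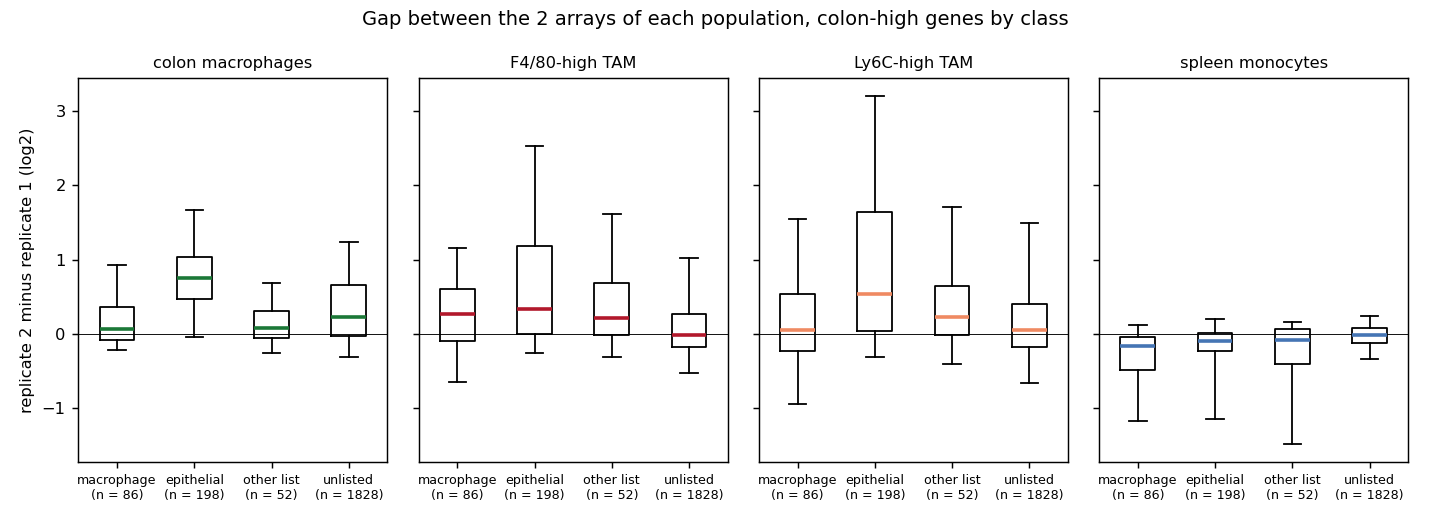
Replicate 2 minus replicate 1 (log2, vertical axis) in each of the 4 populations for the 4 classes of colon-high genes; boxes span the quartiles with the median as a coloured line, and whiskers run from the 5th to the 95th percentile. The epithelial class has the highest median in colon (0.75) and in both tumour populations, while its median in monocytes is -0.087.

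Genes on no list were led by further gut genes. The gasdermin C genes, membrane pore proteins of gut epithelium, were all 4 members, with medians of 11.94 and 12.35 in colon, 5.75 and 8.44 in F4/80-high TAM, 6.10 and 9.37 in Ly6C-high TAM and 6.47 and 5.27 in monocytes. The lowest of the 4 read only 5.68 in colon replicate 1. Of 19 carboxylesterases 11 were members (57.9%), of 6 genes of sulfotransferase family 1 4 (66.7%), and of 48 of cytochrome P450 family 2 18 (37.5%), against 10.1% of all genes. Keratins were nearer that share, with 7 of 47 (14.9%), and olfactory receptors lay below it, with 13 of 1114 (1.17%). These families were chosen after their values were seen, and near-identical members can share probes. They were counted over all measured genes, listed or not. Genes already counted on the epithelial lists, such as Cyp2c55 and Krt19, are thus among them, and the shares are not of unlisted genes alone. Single members on no list were Gpx2, a glutathione peroxidase of the gut (12.17 and 12.32 in colon), Mep1a, a brush border protease (9.10 and 10.62), and Atp8b1, a lipid flippase (10.55 and 11.39).

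A few leading unlisted genes had a small replicate gap in colon, as most of the macrophage class did. The gap does not assign a gene to that class. The gasdermin gene Gsdmc2 (12.32 and 12.48 in colon) and the immunoglobulin segment Igk-V28 (10.70 and 10.87) had it too. H2-M2, a non-classical MHC class I gene, read 10.97 and 11.14 in colon, 5.55 and 6.55 in F4/80-high TAM, 5.49 and 5.28 in Ly6C-high TAM and 6.06 and 5.61 in monocytes, 39.5-fold by the difference of 5.30 ± 0.27. Adamdec1, a secreted metalloprotease that gut macrophages and fibroblasts express, read 10.59 and 10.84, then 6.24 and 8.16, 5.53 and 6.67, and 6.53 and 5.99. Kcnj10, a potassium channel gene, read 10.58 and 10.51, then 8.98 and 8.87, 7.09 and 6.43, and 6.83 and 6.70.

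Antibody genes formed a further dense group. Of 20 measured immunoglobulin segments, a group chosen after its values were seen, 18 were members. Their medians were 11.32 and 10.94 in colon, 5.90 and 8.66 in F4/80-high TAM, 6.15 and 7.83 in Ly6C-high TAM and 7.75 and 6.85 in monocytes. Jchain, which joins IgA and IgM into polymers, read 11.67 and 11.73 in colon, 5.20 and 8.96 in F4/80-high TAM, 5.91 and 8.25 in Ly6C-high TAM and 7.50 and 6.29 in monocytes. Of 23 plasma and B cell genes 7 were members, among them Iglv1, Mzb1, Derl3, Prdm1 and Tnfrsf17, which antibody-secreting cells express. The B cell gene Cd79a was not.

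The lists of other cells are read against the 10.1% of all genes that met the rule. Of 37 T cell and innate lymphoid genes 3 were members (8.11%) and 15 were lower in both colon arrays than on all others, of 20 neutrophil genes 0 and 7, of 42 fibroblast genes 4 (9.52%) and 1, and of 24 endothelial genes 2 (8.33%) and 0. Smooth muscle stood above that share, with 6 of 21 genes (28.6%), among them Myh11, the smooth muscle myosin, at 8.47 and 8.21 in colon and 6.61 to 6.99 elsewhere. The mast cell list gave 1 member of 23 genes (4.35%), the enteric neuron list 1 of 26 (3.85%) and the erythroid list 2 of 13 (15.4%). Of these 2, Car2 is also on an epithelial list. Of 40 cell cycle genes none was a member. The mean of the fibroblast list was 7.75 and 7.81 in colon, 7.50 and 8.44 in F4/80-high TAM, 7.72 and 8.95 in Ly6C-high TAM and 6.77 and 6.80 in monocytes. Igf1 and Gas6, which fibroblasts also express, were likewise higher in replicate 2 than in replicate 1 of Ly6C-high TAM, and the part of these cells in them and in unlisted genes was not tested.

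Immediate early genes, which tissue digestion and sorting can induce within minutes, were among the members more often than most lists, at 17 of 30. Fosb read 13.07 and 12.71 in colon, 10.95 and 12.22 in F4/80-high TAM, 10.42 and 12.08 in Ly6C-high TAM and 10.48 and 7.91 in monocytes. Egr1 read 12.16 and 12.21, then 10.07 and 11.18, 10.33 and 11.57, and 9.67 and 7.71. Both were close between the colon arrays and spread widely between replicates of each other population. Atf3, Fos, Junb, Nr4a1 and Btg2 were members by margins of 0.16 to 0.70. The mean of the list was 10.89 and 10.91 in colon, 9.92 and 10.59 in F4/80-high TAM, 10.29 and 10.87 in Ly6C-high TAM and 9.78 and 9.28 in monocytes. Some genes of the IL-10 feedback list, such as Zfp36, Dusp1, Nfkbia and Tnfaip3, as well as Cxcl1, Cxcl2 and Tnf, are known to rise in the same digestion response, and the part of that response in them was not tested.

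Of 18 measured clock genes 8 were members. Npas2, a partner of the clock activator BMAL1, read 8.39 and 9.48 in colon and 5.62 to 6.34 elsewhere, with the replicate order of the epithelial class. Clock read 10.50 and 10.69 in colon against 9.69 to 10.19, and Arntl, which encodes BMAL1, 8.71 and 9.32 against 7.88 to 8.54. The repressor genes Per1, Per2 and Per3 were members by 0.07, 0.31 and 0.05. Dbp, another gene of the clock list, read 8.40 and 8.25 in colon against 7.76 to 8.58 and was not a member. The labels give no hour of sampling.

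**Figure D4:**
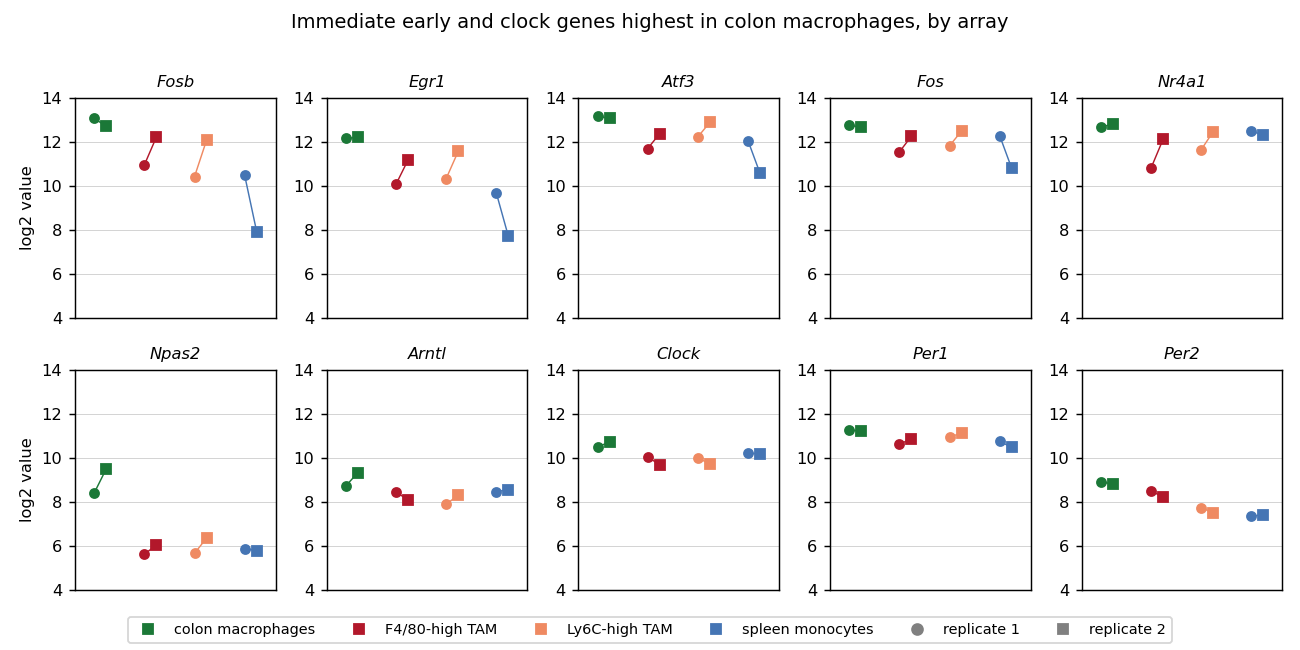
Log2 values of 5 immediate early genes (top) and 5 clock genes (bottom) on each of the 8 arrays, with colour for the population, a circle for replicate 1 and a square for replicate 2, on the same vertical axis in every panel. Fosb and Egr1 are close between the 2 colon arrays and spread between the replicates of the other populations. The monocyte replicates of Nr4a1 are close as well (12.47 and 12.33). Npas2 stands 2.05 or more above every array outside colon.

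The margin of the rule was wide for few genes. Of the 2164, 1074 were at least 2-fold above the mean of the other populations, and 1000 had a mean over the 8 arrays above that of the median gene. The genes just inside were Itln1 (colon 4.84 and 4.90, highest other array 4.84), Dlg1 and Fam161a, and the genes just outside were Dmrta1, Gapvd1 (10.39 and 10.42 against 10.39) and Igsf3. The mirror rule, with both colon arrays below the other 6, took 3056 genes (14.3%). Applied to the other populations, the rule took 1750 genes for F4/80-high TAM, 466 for Ly6C-high TAM and 3679 for monocytes. With colon replicate 1 alone against the 6 arrays the rule took 4574 genes, and with replicate 2 alone 3083. In a limma fit of colon minus the mean of the other populations, 1080 genes (5.04%) were higher and 490 (2.29%) lower at a Benjamini-Hochberg adjusted p of 0.05 and 2-fold. The rule chose the members on the same values, so nothing about them is read from that contrast. Where a member had further probe sets, which the rule did not use, 167 of 280 of them (59.6%) also met the rule, against 67 of 2970 (2.26%) for genes that were not members. The 86 macrophage-type members had only 2 such probe sets, those of Socs3 and Cd209a, and 0 of these met it.

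The rule did not use the order of the members among the 3 other populations, so that order was compared. It did cap their values there, because the highest array outside colon had to lie below the lower colon array. Genes raised strongly in 1 of these populations could thus be kept out of the members. The part of this limit in the shares and medians below, set against other genes, was not tested. Each comparison was fitted with limma over all genes, with the arrays of all populations sharing 1 spread, and a gene was called when it differed at least 2-fold with an adjusted p no higher than 0.05. F4/80-high TAM were first compared with Ly6C-high TAM, the other population of the same tumours. Over all genes 0.168% were called higher and 0.0979% lower. Of the 2164 colon-high genes, 14 (0.647%) were higher in F4/80-high TAM and 0 lower, with 166 and 15 at an unadjusted p under 0.05. The 14 included 4 of the 86 macrophage-type members (4.65%), which were Lilra5, an activating leukocyte receptor (2.37 ± 0.28 SE, adjusted p = 0.041), Itga9 (1.92), Cd22 (1.73) and Acp5 (1.13). Of the 235 macrophage-list genes that were not members, 5 (2.13%) were higher.

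Cadm1, an adhesion molecule on the dendritic cell list, had the smallest p of the 14 (2.25 ± 0.15, adjusted p = 0.00937). It read 10.28 and 10.33 in colon, 9.38 and 9.43 in F4/80-high TAM, 7.35 and 6.95 in Ly6C-high TAM and 7.20 and 7.27 in monocytes. Kcnj10 (2.17 ± 0.21, adjusted p = 0.0301) and the B cell signalling adaptors Blnk (1.87) and Bank1 (1.67) were also higher in F4/80-high TAM. The calls of this comparison rested on few arrays, the colon and monocyte arrays entering only through the shared spread. None of the 14 remained without F4/80-high TAM replicate 1, without either colon array, or without either monocyte array. Removing F4/80-high TAM replicate 2 left 2 calls among the members, removing Ly6C-high TAM replicate 1 gave 4 calls, 3 of them among the 14, and removing Ly6C-high TAM replicate 2 gave 23, 12 of them among the 14.

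F4/80-high TAM were then compared with spleen monocytes. Over all genes 4.58% were called higher and 2.37% lower. Of the colon-high genes 97 (4.48%) were higher and 9 (0.416%) lower. Among the 86 macrophage-type members 23 (26.7%) were higher and 1, Ciita, was lower, whereas among the 198 epithelial members 7 (3.54%) were higher and 1 lower. The share is no larger than in the rest of the same lists. Of the 235 macrophage-list genes that were not members 81 (34.5%) were higher and 19 (8.09%) lower. By the rule, genes of these lists that read above the colon arrays in F4/80-high TAM fall outside the members. Ms4a14 was higher by 5.01 ± 0.51 (adjusted p = 0.0019), Ccl8 by 4.80 ± 0.65 (0.00623), Cd63 by 4.79 ± 0.22 (0.000127) and Hpgds by 4.67 ± 0.43 (0.00131). Mrc1 was higher by 3.62 ± 0.38. These 5 were among the 14 of the 23 macrophage-type calls that held with any 1 array left out.

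Il10 was higher in F4/80-high TAM than in monocytes by 1.08 ± 0.23 (adjusted p = 0.032), far less than the colon arrays stood above both. That call was lost without either monocyte array or without F4/80-high TAM replicate 2 (adjusted p of up to 0.217), and with median centring its difference was 0.85. Ciita was lower by 1.14 ± 0.26 (adjusted p = 0.0372), a call lost when F4/80-high TAM replicate 1, either colon array or either monocyte array was left out. Cxcl2 (4.18 ± 1.01) lost its call without either colon array, either F4/80-high TAM array or monocyte replicate 2, and monocytes themselves read 8.90 and 5.46. Outside the macrophage lists, Mmp13, a collagenase (4.52 ± 0.40), Klrb1b, a lectin-like receptor (4.48 ± 0.27), and Gdpd1 (3.85 ± 0.50) held with any array left out.

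Tspan13, a tetraspanin, was lower in F4/80-high TAM by 2.75 ± 0.20 (adjusted p = 0.000496). It read 12.01 and 11.96 in colon, 8.89 and 9.51 in F4/80-high TAM, 10.15 and 10.12 in Ly6C-high TAM and 11.94 and 11.96 in monocytes, so colon and monocytes were alike and the tumour populations low. Ceacam1, an adhesion receptor of epithelium and leukocytes, had the same profile (12.89 and 13.21, 9.99 and 10.61, 10.96 and 11.59, 12.78 and 12.67) and was lower by 2.43 ± 0.28. Without monocyte replicate 1 the counts of members higher and lower were 64 and 3, without monocyte replicate 2 they were 52 and 2, and without either Ly6C-high TAM array 19 were lower.

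Ly6C-high TAM were last compared with the same spleen monocytes, so this comparison and the previous one share those arrays. Over all genes 2.88% were called higher and 1.62% lower. Of the colon-high genes 59 (2.73%) were higher and 15 (0.693%) lower. Among the macrophage-type members 17 (19.8%) were higher and 0 lower, with 25 and 9 at an unadjusted p under 0.05, and among the epithelial members 3 (1.52%) were higher and 1 lower. Of the 235 macrophage-list genes that were not members 73 (31.1%) were higher and 17 (7.23%) lower. Cd63 (3.83 ± 0.22, adjusted p = 0.000374), Cxcl16, a membrane-bound chemokine (3.24 ± 0.27, adjusted p = 0.00125), and Cd83 (2.36 ± 0.24, adjusted p = 0.00278) held with any array left out, as did 6 of the 17 in all. Mrc1 was higher by 2.06 ± 0.38 and lost this call without either colon array or either monocyte array. Cdh1, which encodes E-cadherin and stands on the epithelial list, was higher by 3.55 ± 0.44, with 9.39 and 10.22 in Ly6C-high TAM against 6.50 and 6.01 in monocytes. It lost its call without monocyte replicate 2 (adjusted p = 0.0658).

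Bank1 was lower in Ly6C-high TAM than in monocytes by 1.90 ± 0.21 (adjusted p = 0.00355), with Tspan13 (-1.81) and the acetyl-CoA synthetase gene Acss1 (-1.64) next. Acss1 lost its call without monocyte replicate 2. The counts of members higher and lower were 143 and 38 without Ly6C-high TAM replicate 1, 33 and 3 without monocyte replicate 1, and 20 and 3 without monocyte replicate 2.

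**Figure D5:**
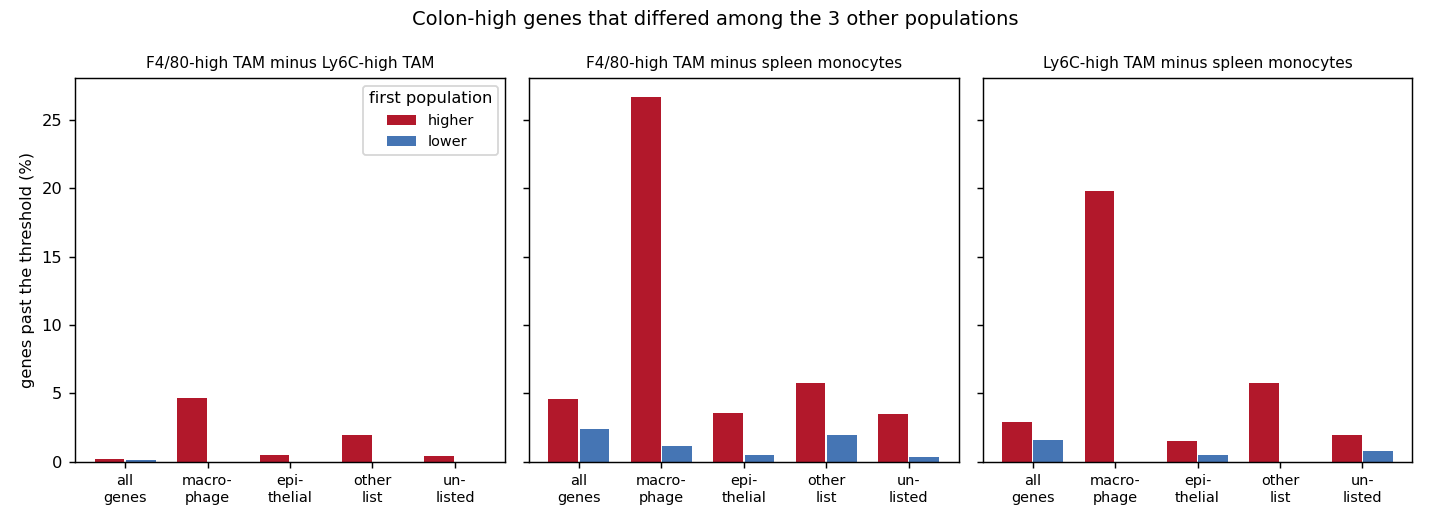
Share of genes called (vertical axis, % of the class) in the 3 comparisons among the populations outside colon, for all genes and for the 4 classes of colon-high genes; red bars are genes higher and blue bars genes lower in the first population named. The macrophage class stands at 26.7% and 19.8% higher in the 2 comparisons with monocytes, against 4.58% and 2.88% of all genes, while the epithelial class stands at 3.54% and 1.52%; the macrophage-list genes that were not members, not drawn, stand at 34.5% and 31.1%.

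Class medians need no threshold. The median difference between F4/80-high TAM and monocytes was 0.38 over the 86 macrophage-type members, 0.16 over the 198 epithelial members and -0.021 over all genes. Between Ly6C-high TAM and monocytes it was 0.20 for both classes and -0.083 over all genes. The epithelial mean was higher in the replicate 2 arrays of the tumour populations than in monocytes, and its part in these differences was not tested.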

How the data were processed

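Gene expression was measured on 8 arrays in 4 sorted populations. The deposited unit is log2 expression after RMA, which the submitters' processing notes name beside Partek 6.6. No genome build is given in these notes or headers. RMA brings the arrays to a common distribution, so a change shared by most genes would not be seen. Per their design notes, the submitters required 2-fold and 5% false discovery, and those limits were kept here.

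Values came from the series matrix (35556 probe sets). Symbols came from the deposited annotated table for 24692 probe sets and were updated by RefSeq accession (21023 matched, 1926 changed). That table's 8 value columns match no sample label and were not used. A gene with several probe sets (1901 of 21442) was represented by the one with the highest mean. No filter on low values was applied. The arrays carry no depth, and their number limits the precision. Comparisons among the 3 populations outside colon used limma 3.58.1 with R 4.3.3 (a mean per population, all 8 arrays, 4 residual and 2.64 prior degrees of freedom) and adjusted over all genes by Benjamini-Hochberg. The fit was tested on simulated data.

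The members and the 30 gene lists (953 measured genes) were chosen with earlier results of these data known, as were the motifs and the 4 promoters. A gene on an epithelial and a macrophage list counted as epithelial. Genes were named by a rule that took up to 6 members per macrophage list, 5 per epithelial list and 3 per other list by size of the difference, the 25 largest unlisted members, 3 on each side of the rule's limit, the 3 macrophage-list members with the widest and the narrowest colon replicate gaps, up to 5 calls per direction and comparison, and 14 genes whatever their values. Predicted transcripts were skipped. Other genes named from the lists were chosen after their values were seen. Alternatives covered scaling, probe sets, a filter on low values, the replicate block, an epithelial covariate and leaving out arrays. Some genes are not reported here.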

Additional observations from a re-analysis of the deposited data

How the results depend on the processing

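The count of colon-high genes was 2164. It was 494 with a margin of 1 log2 unit, 1000 among genes above the median mean value, and 2236 to 4574 with 1 array left out, all of these by construction of fewer genes or arrays. Median centring gave 1517 and quantile normalization 2282. Of the colon contrast, 1080 genes were higher and 490 lower, 610 were higher among genes above the median, and leaving out 1 array gave 581 to 1221 higher and 358 to 571 lower. Median centring moved the median gene by -0.154 in that contrast and gave 965 higher and 726 lower. Members higher in F4/80-high than Ly6C-high TAM numbered 14, and 0 with the 6 arrays outside colon, 33 with the epithelial mean as a covariate, 29 when both tumour replicate 2 arrays were dropped and 0 to 23 with 1 array left out. Members lower there numbered 0, and 1 with that covariate or without those arrays. For F4/80-high TAM against monocytes, the 97 higher became 52 to 117 with 1 array left out. The 9 lower became 23 with median centring, which moved the median gene by -0.228 there, 21 with the covariate, 26 without the tumour replicate 2 arrays and 2 to 19 with 1 array left out. For Ly6C-high TAM against monocytes, the 59 higher became 20 to 143 and the 15 lower 3 to 38 with 1 array left out, and the lower became 23, 29 and 26 under median centring, the covariate and without the tumour replicate 2 arrays. The cause of these moves was not tested.

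With the replicate number as a block, the members called became 8 and 0 for F4/80-high against Ly6C-high TAM, 111 and 13 against monocytes, and 70 and 19 for Ly6C-high TAM against monocytes, and the colon contrast gave 1173 and 511. Of the 14 without the block 7 were among the 8, and Lilra5, Acp5, Blnk and Bank1 were not (adjusted p = 0.0503 to 0.0789). The labels do not tie the numbers to animals. Deviations of same-numbered arrays correlated at 0.77 between the tumour populations, 0.22 and 0.26 between colon and these, and -0.155, -0.108 and -0.056 with monocytes. With the monocyte numbers crossed, added after the data were seen, the counts were 112 and 13, and 80 and 21. Of 1793 recomputed differences of the 163 named genes from colon, 1370 moved by less than the spread of the colon replicates, 421 by more, and 2 reversed: Csf1r to -0.01 with median centring and Xist to -0.64 without colon macrophages replicate 2 (6.51 without replicate 1). Of 93 calls examined, 39 held under scaling, block and every array left out.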
